A study of Mus musculus with 26 samples.

Results

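The 9 genes described here carry signals from motor nerve to muscle and receive them: Agrn, Lrp4, Musk and Dok7 of the agrin pathway, and Nrg1, Nrg2, Erbb2, Erbb3 and Erbb4 of the neuregulin pathway. They were chosen by symbol, and all 9 of 9 were found among the 56941 genes of the deposited tables. RNA was sequenced from spheroids of motor neurons of the HBG3 line, mouse embryonic stem cells in which HB9 (Mnx1) regulatory sequence drives GFP. The cells were differentiated with retinoic acid and purmorphamine, received ciliary and glial derived neurotrophic factors from day 5, and were placed on fibrin at about day 8, as a culture without muscle cells. All groups share the line, which the labels describe by its origin as "heterozygous blastocysts", and these factors.

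The labels give 5 groups. Spheroids of the actuated group (n = 4 libraries) lay on a silicone array moved by magnets for 30 min a day at 4 Hz, and those of the static group (n = 4) on the same kind of array never moved. Spheroids of the high intensity group and the low intensity group (n = 6 each) received a biochemical treatment, described for the series as medium conditioned by muscle. The labels do not pair intensity with stimulated or resting muscle, so the groups are named by intensity only. Biochemical controls (n = 6) complete the set. Nothing says that replicates came from separate cultures, so p-values measure the spread between these libraries, which may be technical. In bulk RNA, fewer cells of a type and less RNA per cell cannot be told apart.

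Of 26 libraries, the 21 with at least 1000000 counts on protein-coding genes were compared: 4 actuated, 3 static, 4 high intensity, 5 low intensity and 5 control. The 5 left out held 1536 to 1457250 counts in all. Totals of the 21 ran from 7269276 to 13162635 counts in the array groups and from 1551334 to 3971348 in the other 3 groups. Levels are given in CPM, counts scaled to library size with TMM factors that allow for differences in composition. Neuron markers were present in all 21 libraries (summed CPM of Tubb3, Map2, Rbfox3, Snap25, Stmn2 and Elavl3 between 2263 and 3548), as were motor neuron markers (8 genes, 372.8 to 865.6) and markers of radial glia and astrocytes (8 genes, 2327 to 4608). Markers of neurons and of glia were thus both present in every library. On the arrays the glial sum spanned 3032 to 4608 CPM (actuated) and 3560 to 4334 CPM (static). It spanned 2677 to 2925 CPM with high intensity, 2743 to 4173 with low intensity and 2327 to 3183 in controls. Gfap was its largest part (1895 CPM on average). Among cell type markers, the edgeR test for any difference called Fabp7, Nes, Gfap, Slc5a7 and Col1a2. Against controls, Nes was called higher with low intensity and Slc5a7 lower on the static array. Most of the motor neuron sum came from Prph (504.6 CPM on average). The other motor neuron markers averaged 55.9 (Slc18a3), 19.7 (Slc5a7), 9.10 (Isl1), 8.99 (Chat), 7.76 (Mnx1), 1.59 (Lhx3) and 0.759 CPM (Isl2). Summed mesenchymal markers (8 genes) spanned 891.2 to 2371 CPM in the high intensity group, 229.9 to 2557 in the low intensity group and 337.1 to 880.0 in controls. On the arrays they spanned 154.5 to 767.2 CPM (static) and 44.6 to 576.5 CPM (actuated). Of 8 skeletal muscle markers, Des, an intermediate filament gene that is not specific to skeletal muscle, made up most of the sum except in actuated replicate 3. Des ran from 14.0 to 166.2 CPM in the high intensity group, 6.47 to 133.3 in the low intensity group and 8.46 to 64.6 in controls. It ran from 5.73 to 105.1 CPM in the static group and from 1.32 to 24.2 CPM in the actuated group. The other 7 summed to 2.20 to 12.7 CPM with high intensity, 0 to 7.82 with low intensity and 0 to 8.34 in controls. They summed to 0.298 to 1.97 CPM in the static and 0.563 to 3.53 CPM in the actuated group. Myod1 and Myog were at 0 in all 5 controls.

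Agrin is a heparan sulfate proteoglycan that motor nerve endings deposit at the neuromuscular junction. In muscle it binds LRP4, which activates the receptor kinase MuSK with the adaptor Dok-7, and acetylcholine receptors cluster beneath the nerve ending. Neuregulins are EGF-like ligands of axons that bind ErbB3 and ErbB4. ErbB2 binds no ligand itself and signals by pairing with the others, and neuregulin on axons is known above all for its action on Schwann cells.

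Start regions of the most and the least abundant of the 4 agrin pathway genes on the length-scaled measure are shown, since Agrn has more than one start and a form of agrin with a short N-terminus is made from an internal one. Each run covers the 240 bases from 250 to 11 bases before a RefSeq start in GRCm38.p6, and capitals mark an E-box (CANNTG, bound by myogenic and neural helix-loop-helix factors) or an N-box (CCGGAA), both searched on either strand.

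Agrn, chr4:156197499-156197738, minus strand: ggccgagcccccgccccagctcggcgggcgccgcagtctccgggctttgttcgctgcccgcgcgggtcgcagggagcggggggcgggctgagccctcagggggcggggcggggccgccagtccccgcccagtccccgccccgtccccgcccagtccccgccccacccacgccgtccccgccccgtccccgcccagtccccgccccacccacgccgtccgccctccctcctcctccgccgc

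Agrn, internal start, chr4:156186270-156186509, minus strand: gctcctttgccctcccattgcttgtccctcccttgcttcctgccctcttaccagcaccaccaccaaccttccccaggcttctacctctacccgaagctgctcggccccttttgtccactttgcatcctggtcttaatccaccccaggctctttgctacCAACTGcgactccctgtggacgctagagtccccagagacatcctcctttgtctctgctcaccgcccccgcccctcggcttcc

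Musk, chr4:58285712-58285951, plus strand: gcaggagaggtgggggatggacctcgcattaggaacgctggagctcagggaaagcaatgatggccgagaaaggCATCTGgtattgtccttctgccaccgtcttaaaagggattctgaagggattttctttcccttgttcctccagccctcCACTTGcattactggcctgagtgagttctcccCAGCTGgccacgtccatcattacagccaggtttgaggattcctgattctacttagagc

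The first Agrn window had a GC content of 83.8%, higher than 99.7% of 32851 mouse windows of this kind (median 52.1%), with 33 CpG dinucleotides and no E-box. The internal Agrn window had 60.0% GC, 7 CpG and 1 E-box, and the Musk window 52.5% GC, 5 CpG and 3 E-boxes. E-boxes occurred in 65.0% and N-boxes in 11.2% of all windows. None of the 3 windows held an N-box, while the window of Erbb4 held 1. Windows were kept for 5 of the 9 genes (Agrn, Musk, Dok7, Erbb2 and Erbb4), after a filter on sequence length and chromosome. The deposited values are per gene, so they do not separate transcripts from different starts, or the nerve-specific splice forms of agrin.

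On TPM, the deposited measure that is scaled for transcript length and library size, the ligand genes Agrn and Nrg1 and the agrin receptor gene Lrp4 had the highest medians of the 9. Agrn had a median of 38.9 TPM over 21 libraries (range 13.9 to 51.0), Nrg1 35.2 (13.9 to 56.7) and Lrp4 28.0 (10.2 to 37.4). Erbb4 followed at 10.5 TPM, Erbb2 at 4.14, Nrg2 at 2.18, Erbb3 at 0.825 and Dok7 at 0.773, and the median of Musk was 0. Within libraries, Agrn exceeded Nrg1 in 13 of 21 and Erbb3 exceeded Dok7 in 12 of 21, so these neighbours overlapped in level. Nrg1 exceeded Lrp4 in 18, Lrp4 exceeded Erbb4 in 20, Erbb4 exceeded Erbb2 in 21, Erbb2 exceeded Nrg2 in 16, Nrg2 exceeded Erbb3 in 19 and Dok7 exceeded Musk in 17 of 21. The order is a description of these libraries, and TPM rests on the authors' transcript lengths: the deposited counts per TPM of Erbb4, relative to each library, varied 3.08-fold between libraries and those of Nrg1 1.89-fold.

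**Figure D1:**
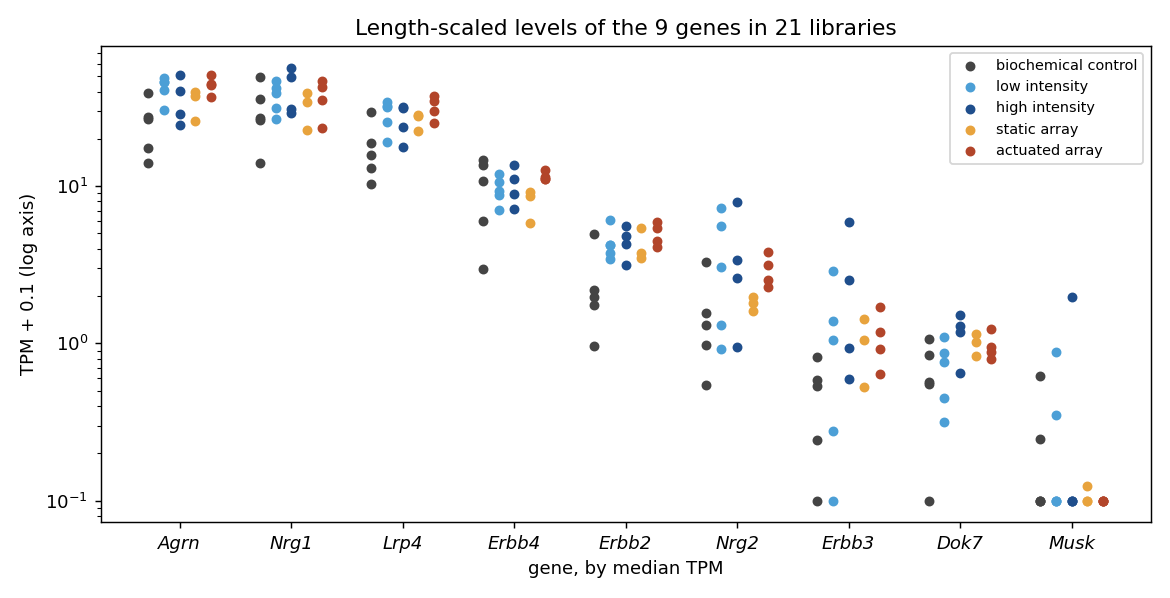
TPM plus 0.1 on a log axis (vertical) for each of the 9 genes, ordered by median (horizontal), with 1 point per library coloured by group. Agrn, Nrg1 and Lrp4 lie highest, with medians of 38.9, 35.2 and 28.0 TPM, and Musk lies at 0 TPM in 15 of the 21 libraries.

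None of the 7 genes with enough counts to be fitted (Agrn, Lrp4, Nrg1, Nrg2, Erbb2, Erbb3 and Erbb4) differed between groups at an adjusted p of 0.05 by edgeR's quasi-likelihood test. Actuation asks what daily movement did to the spheroids: 0 of 7 were called, against 0% of all 14730 genes tested (0 genes, with 56 at an unadjusted p under 0.05). High intensity against control called 0 of 7, against 0.462% of all genes (68). Low intensity against control called 0 of 7, against 0.597% (88), and high against low intensity 0 of 7, against 0% (0, with 1131 unadjusted). The static array against control, which differ in platform and in depth together, called 0 of 7, against 0.713% (105). A test for any difference among the 5 groups called 0 of 7, against 3.43% (505). At an unadjusted p under 0.05 there were 3 differences among the 35 gene and pair combinations: Erbb3 and Erbb4 between high intensity and control, and Nrg1 between static array and control. Over all genes, 15.9% (2349) were under that p in the first of these comparisons and 12.6% (1850) in the second.

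**Figure D2:**
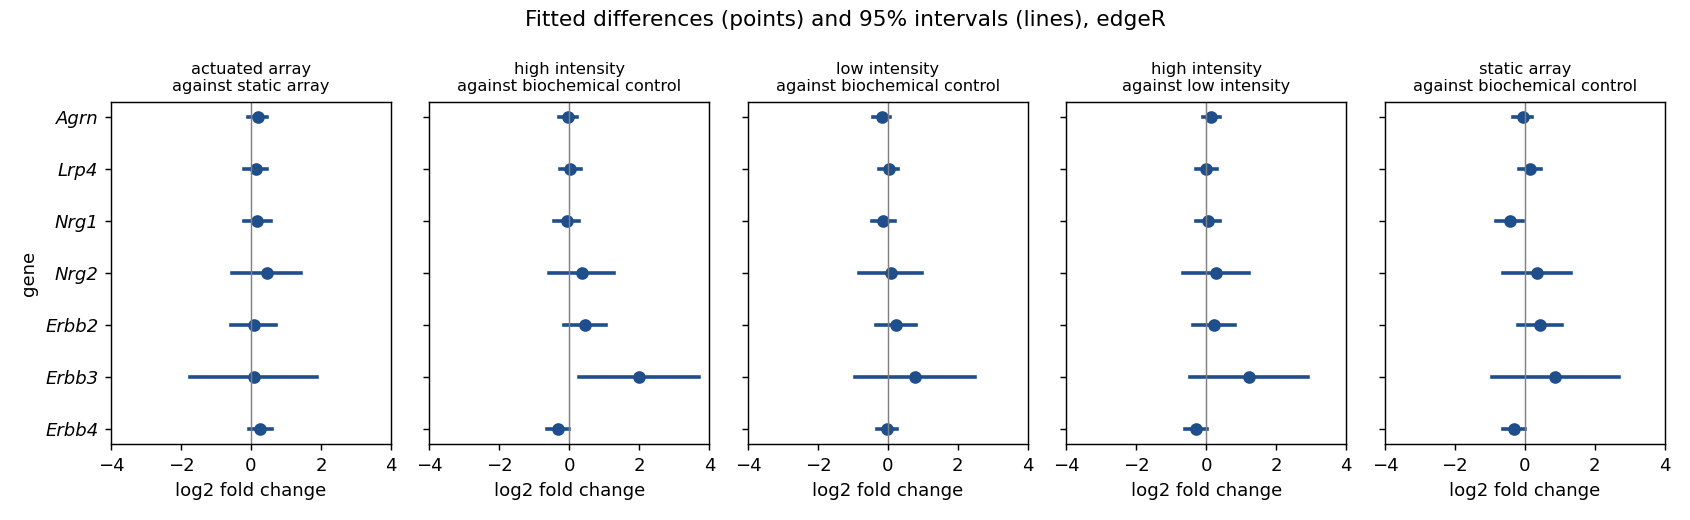
Fitted log2 fold change (horizontal, points) with its 95% interval (lines) for 7 genes (rows) in 5 comparisons (panels). Intervals of Agrn and Lrp4 are narrow and include 0 in every panel, while those of Erbb3 span up to 3.62 log2 units.

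Agrn, the nerve-derived ligand, had 182.6, 185.4, 230.7, 182.0 and 207.2 CPM in the 5 controls. It had 180.1, 172.3, 192.5, 168.8 and 158.5 CPM in the low intensity group and 220.4, 195.0, 140.6 and 211.6 CPM in the high intensity group. Static array libraries had 197.4, 170.7 and 200.7 CPM, and actuated ones 201.2, 207.0, 215.3 and 244.7 CPM. All 4 actuated libraries lay above all 3 static ones, by a narrow margin, and above all 5 low intensity ones. Every other pair of groups overlapped. Group means were 217.1 ± 19.3 CPM (SD, n = 4) for actuated, 189.6 ± 16.5 (n = 3) for static, 191.9 ± 35.8 (n = 4) for high intensity, 174.4 ± 12.7 (n = 5) for low intensity and 197.6 ± 21.3 (n = 5) for control. Actuated against static was a log2 fold change of 0.20 (SE 0.13; adjusted p 1 by edgeR), and low intensity against control one of -0.18 (SE 0.11, adjusted p = 0.481). Over all 5 comparisons the 95% intervals of the Agrn fold lay between 0.751 and 1.39, so a change beyond these sizes lies outside every interval.

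Lrp4, the agrin receptor of muscle that neurons also make, had 153.0, 151.0, 235.0, 132.9 and 173.9 CPM in controls. Low intensity libraries had 207.8, 148.7, 189.0, 168.2 and 143.5 CPM, and high intensity ones 181.6, 182.0, 157.8 and 165.8 CPM. Static array libraries had 175.7, 180.0 and 204.2 CPM, and actuated ones 210.1, 174.5, 196.1 and 241.6 CPM. The 5 groups overlapped. Its fitted log2 fold changes lay between 0.00 (high against low intensity) and 0.14 (static array against control), with fold intervals between 0.815 and 1.38 and adjusted p of at least 0.763. The TPM ratio of Agrn to Lrp4 was 1.41 ± 0.18 (SD) over 21 libraries and ranged from 1.14 to 1.80. Agrn and Lrp4 varied together across libraries (Pearson r of log2 CPM 0.65 over 21 libraries, 0.64 after group means were removed), as did Lrp4 and Erbb2 (0.69). These points share depth and cell mixture, and Lrp4 also followed the glial transporter Slc1a3 (r 0.72). Agrn had r 0.62 with Slc1a3 and 0.54 with the glial marker Fabp7. Its r with neuron markers was 0.42 (Tubb3), 0.38 (Mnx1) and 0.28 (Chat).

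Musk, the receptor kinase of muscle, had 39 counts in all, in 6 of 21 libraries. High intensity replicate 3 held 17, control replicate 1 held 11, low intensity replicate 5 held 7, control replicate 6 held 2, and low intensity replicate 4 and static array replicate 2 held 1 each. The other 15 libraries were at 0, among them all 4 actuated ones, where a count of 0 allows up to 0.282 to 0.391 CPM per library, from 3 counts and for counting error only. Against the floor of 3 counts over the 4 actuated libraries, the pooled Musk level was at least 10.6-fold higher in controls, at least 16.1-fold higher in the high intensity group and at least 6.90-fold higher in the low intensity group, and each of these rests on 1 or 2 libraries. In the fit without a low-count filter Musk passed the test for any difference (edgeR adjusted p = 0.0491). That fit called 2064 genes for any difference, against 505 with the filter. The high intensity library with 17 Musk counts also had the most Myod1 of the 21 (4.09 CPM, a muscle lineage factor), and the low intensity library with 7 had 3.74 CPM of Myod1, whereas both controls with Musk counts had 0 and high intensity replicate 2, with 2.84 CPM of Myod1, had no Musk count. The part of muscle-like cells in the Musk counts was not tested.

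Dok7, the adaptor that activates MuSK, was detected in 20 of 21 libraries, at 192 counts in all, and stayed under the filter. Its means were 1.77 ± 0.67 CPM (SD, n = 4) for actuated, 2.04 ± 0.26 (n = 3) for static, 2.23 ± 0.87 (n = 4) for high intensity, 1.16 ± 0.62 (n = 5) for low intensity and 1.61 ± 1.00 (n = 5) for control. The only library at 0 was control replicate 2, where 3 counts correspond to 1.05 CPM. The static values (1.86 to 2.34 CPM) lay above all low intensity values (0.375 to 1.70 CPM), and every other pair of groups overlapped. Without a filter Dok7 had an edgeR adjusted p of 0.953 for any difference.

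**Figure D3:**
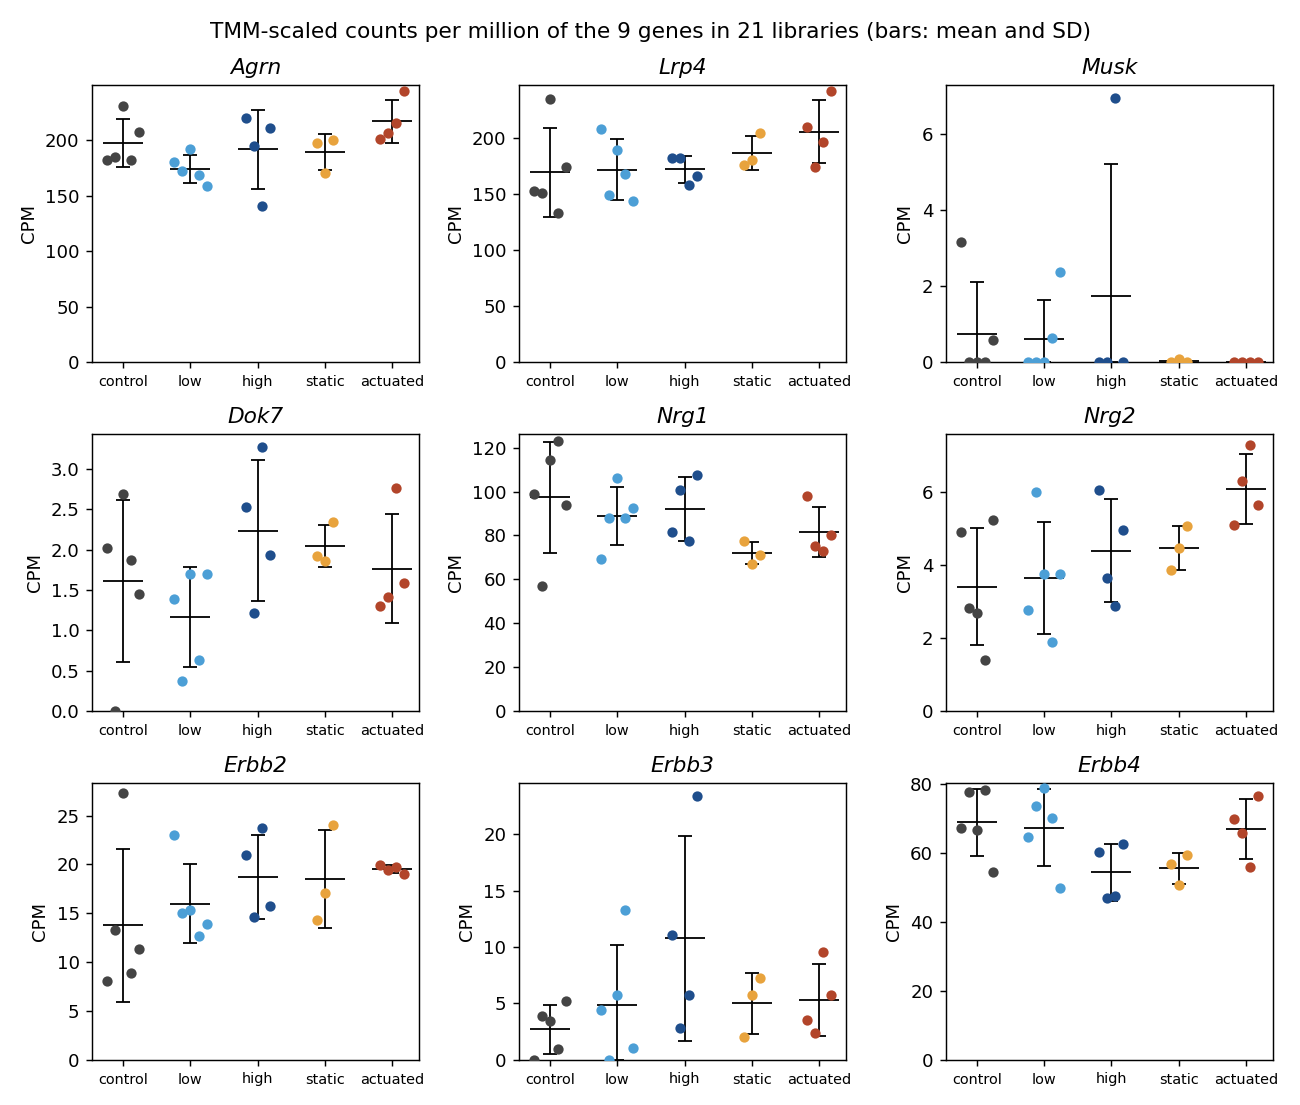
TMM-scaled CPM (vertical) of each of the 9 genes by group (horizontal), with 1 point per library and bars for the mean and SD of the group (lower bar ends stop at 0). Agrn, Lrp4, Nrg1 and Erbb4 stay within a 2.15-fold range over the 21 libraries, whereas Erbb3 runs from 0 to 23.4 CPM and Musk from 0 to 6.95 CPM, each with its highest value in the high intensity group.

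Nrg1, the main axonal neuregulin, had 98.9, 57.1, 114.2, 123.1 and 93.9 CPM in controls. Low intensity libraries had 69.4, 88.0, 106.3, 87.9 and 92.5 CPM, and high intensity ones 81.7, 100.9, 77.7 and 107.7 CPM. Static array libraries had 77.5, 67.2 and 71.2 CPM, and actuated ones 97.9, 75.0, 73.0 and 80.2 CPM. Control replicate 2 was the lowest of all 21 and the other 4 controls lay above the 3 static libraries. Static array against control was a log2 fold change of -0.43 (SE 0.18; adjusted p 0.309 by edgeR). Without control replicate 2 it had an adjusted p of 0.0843. On log2(TPM + 1) it was 0.15, where 1087 of the 1091 genes called were higher on the static array, and on TPM rescaled over protein-coding genes it was -0.42. In the other 4 comparisons the log2 fold changes lay between -0.13 and 0.18. A second identifier with the symbol Nrg1 was at 0 in every library.

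Nrg2, a related ligand, was low, with 515 counts in 21 libraries. Actuated libraries had 5.09, 6.29, 7.28 and 5.62 CPM and static ones 3.84, 4.46 and 5.05 CPM, so that the 4 actuated values lay above the 3 static ones, the closest 2 being 5.09 and 5.05. The log2 fold change was 0.45 (SE 0.48; adjusted p 1 by edgeR). High intensity, low intensity and control means were 4.38 ± 1.41 (SD, n = 4), 3.63 ± 1.53 (n = 5) and 3.40 ± 1.61 CPM (n = 5), and these groups overlapped. Its 95% intervals of the fold were wide, from 0.684 to 2.71 for actuated against static and from 0.567 to 1.98 for low intensity against control. As a share of the summed TPM of Nrg1 to Nrg4, Nrg1 made up 67.1%, Nrg3 27.1%, Nrg2 5.19% and Nrg4 0.646% on average.

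Erbb2, the receptor that binds no ligand, had 8.05, 13.3, 27.3, 8.89 and 11.3 CPM in controls, where replicate 3 stood far above the others. Low intensity libraries had 23.0, 15.0, 15.3, 12.6 and 13.9 CPM, and high intensity ones 20.9, 14.6, 23.7 and 15.7 CPM. Static array libraries had 14.4, 17.0 and 24.0 CPM, and the 4 actuated ones lay between 19.05 and 19.97 CPM. High intensity against control was a log2 fold change of 0.45 (SE 0.29; adjusted p 0.491 by edgeR). The other comparisons gave 0.08 for actuated against static, 0.23 for low intensity against control, 0.22 for high against low intensity and 0.43 for static array against control. Every 95% interval of Erbb2 included 0.

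Erbb3, the neuregulin receptor of Schwann cells and their precursors, had 0, 3.85, 3.46, 0.936 and 5.22 CPM in controls. Low intensity libraries had 4.43, 0, 5.79, 13.3 and 1.02 CPM, and high intensity ones 11.1, 2.84, 5.72 and 23.4 CPM. Static array libraries had 2.04, 5.73 and 7.27 CPM and actuated ones 3.52, 2.35, 9.60 and 5.74 CPM. High intensity replicate 6 was the highest of all, and the groups overlapped. High intensity against control was a log2 fold change of 1.99 (SE 0.83; 95% interval 0.27 to 3.71, adjusted p 0.235 by edgeR). Without high intensity replicate 6 it was 1.29 (adjusted p = 0.492), and in a fit with no low-count filter it was 2.02 (adjusted p = 0.0222). The fit with no filter called 700 genes in that comparison, against 68 with the filter. The coefficient of biological variation of Erbb3 was 79.8%, above that of 93.8% of 500 genes of like level, against 13.1% for Agrn.

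In high intensity replicate 6, Sox10, a factor of Schwann and oligodendrocyte lineages, was 32.5 CPM, against 14.3 to 16.6 CPM in the other 3 of its group. Summed over 8 markers of those lineages, this library had 232.0 CPM, the group spanning 146.8 to 232.0, controls 98.7 to 186.1 and the actuated group 131.4 to 559.8. Low intensity replicate 4, with 13.3 CPM of Erbb3, had 6.95 CPM of Sox10. The part of glial lineage cells in the Erbb3 difference was not tested.

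Erbb4, the neuregulin receptor of neurons, had 67.3, 77.4, 66.5, 78.1 and 54.5 CPM in controls. Low intensity libraries had 64.5, 73.4, 78.7, 70.2 and 49.7 CPM, and high intensity ones 60.3, 47.0, 47.4 and 62.5 CPM. Static array libraries had 56.6, 50.5 and 59.3 CPM and actuated ones 69.7, 65.7, 55.8 and 76.6 CPM. In the high intensity group 2 libraries lay below all controls and the other 2 within them. High intensity against control was a log2 fold change of -0.33 (SE 0.15; adjusted p 0.275 by edgeR). On log2(TPM + 1) it was 0.21, where 2315 of the 2324 genes called were higher with high intensity, and on TPM rescaled over protein-coding genes it was -0.23. Summed motor neuron markers, mostly Prph, spanned 372.8 to 627.0 CPM in the high intensity group and 599.1 to 865.6 in controls. Their part in the Erbb4 difference was not tested.

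The mix of neuregulin receptors is a further description. Erbb4 made up 78.0 ± 6.9% (SD, n = 5) of the summed TPM of Erbb2, Erbb3 and Erbb4 in controls, against 64.1 ± 7.1% (n = 5) in the low intensity, 61.1 ± 4.8% (n = 4) in the high intensity, 60.6 ± 7.2% (n = 3) in the static and 66.0 ± 2.9% (n = 4) in the actuated group. Control values (69.6 to 85.5%) lay above all values of the high intensity (56.3 to 66.4%), static (56.2 to 68.9%) and actuated groups (62.4 to 69.57%), the last by a narrow margin, and overlapped those of the low intensity group (56.9 to 74.0%). By counts, which do not use the varying lengths, the shares were 81.0 ± 8.8% in controls, 76.4 ± 5.0% in the low intensity, 65.4 ± 5.3% in the high intensity, 70.6 ± 6.2% in the static and 72.7 ± 4.8% in the actuated group, and the range of controls (68.4 to 89.3%) overlapped that of each other group.

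Deposited TPM led to calls that counts did not, for 3 genes in low intensity against control. On deposited TPM, Agrn was 24.8 ± 9.7 (SD, n = 5) in controls and 42.3 ± 7.2 (n = 5) in the low intensity group, a difference of 0.81 on the log2(TPM + 1) scale (limma adjusted p = 0.0183), opposite in sign to the -0.18 from counts. Lrp4 (0.74, adjusted p = 0.0273) and Erbb2 (0.78, adjusted p = 0.0353) were also called there, along with 5440 of 14730 genes, 5423 of them higher. Protein-coding genes held 24.1 to 44.5% of all TPM in the control libraries, against 55.3 to 65.1% in the low intensity libraries. After TPM were rescaled to a fixed total over protein-coding genes (this alternative was chosen after seeing the data), the differences were 0.12 for Agrn, 0.06 for Lrp4 and 0.33 for Erbb2, and 17 of 14730 genes were called, none of them among the 9.

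**Figure D4:**
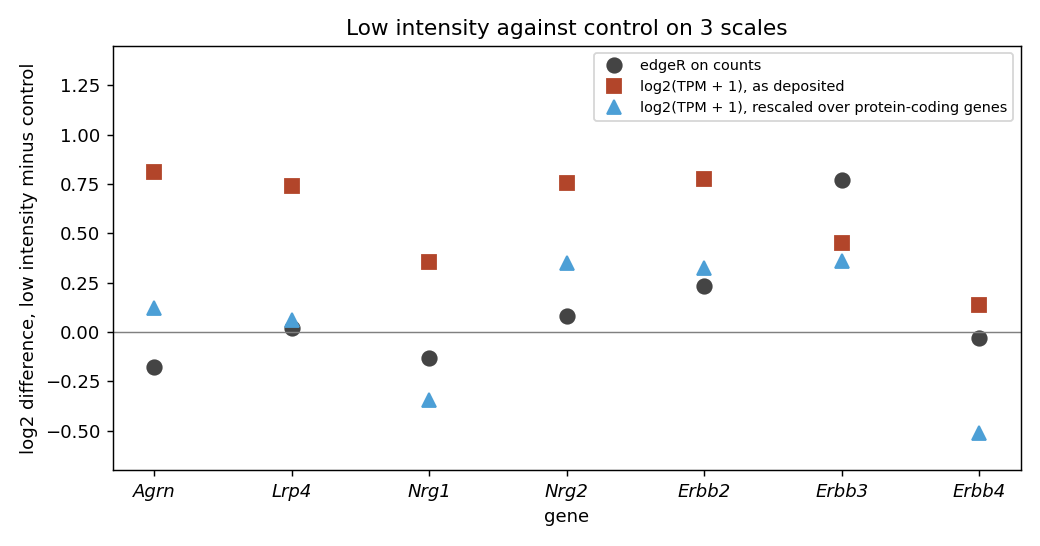
Log2 difference of low intensity minus control (vertical) for 7 genes (horizontal) from counts, from deposited TPM and from TPM rescaled over protein-coding genes. The deposited TPM lie above 0 for all 7 genes, with 0.81 for Agrn, whereas Agrn is -0.18 from counts and 0.12 after rescaling.

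Partners of agrin and genes of the postsynaptic side formed a list of 15, of which 10 were fitted and none was called in any of the 5 comparisons between groups (median log2 fold change of the list 0.11 for actuation, 0.11 for high and 0.16 for low intensity against control, against medians of -0.00042, 0.0033 and -0.0083 over all genes). The most abundant were Cttn, an actin-binding protein (231.0 CPM on average), Dag1, a laminin and agrin receptor (173.5 CPM), and Crk, an adaptor downstream of Dok-7 (113.8 CPM), whose adjusted p were at least 0.313. The test for any difference called Chrna1, the alpha subunit of the muscle acetylcholine receptor (edgeR adjusted p = 0.0108). The low-count filter kept this gene only through low and high intensity libraries, the groups where it was high, so the call is not independent of the filter. The same holds for the pairwise test of low intensity against control, under each setting that used such a filter. Chrna1 had 0 counts in all 5 controls. It had 49, 7, 2, 2 and 61 counts in the low intensity group and 1, 0, 16 and 0 in the high intensity group. The actuated libraries had 0, 0, 0 and 1 counts and the static ones 2, 0 and 0.

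All 5 low intensity libraries thus held Chrna1 counts, most of them in replicates 1 and 5. Against the floor of 3 counts over the 5 controls, the pooled level was at least 42.6-fold higher in the low intensity group. The pairwise edgeR test gave an adjusted p of 0.0548. Other settings moved the pairwise adjusted p to between 1.02e-05 (no low-count filter) and 0.244 (limma voom). It was under 0.05 at 1 CPM in 4 libraries (0.0469), by DESeq2 (0.0316), without mitochondrial and rRNA genes (0.0495) and on log2(TPM + 1) (0.0107). It was over 0.05 with all 26 libraries (0.164), the replicate block (0.139), rescaled TPM (0.124), the groups compared alone (0.0787) and thinning (0.0675). Leaving out low intensity replicate 1 or 5 gave 0.126, and leaving out high intensity replicate 3 gave 0.0185. The call for any difference was lost with all 26 libraries (adjusted p = 0.0625), with the replicate block (0.0670), with limma voom (0.0924) and on rescaled TPM (0.213). Low intensity replicate 5 also had 3.74 CPM of Myod1, which was at 0 in the other 4. Its muscle markers other than Des summed to 7.82 CPM, against 5.26 CPM in replicate 1 and 0 in replicate 3. The part of muscle-like cells was not tested.

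The other EGF-family ligands and EGFR formed a list of 10, of which 7 were fitted. Areg, a ligand of EGFR, was the only one called. It had 37.4, 57.8, 42.7, 58.0 and 39.1 CPM in controls and 14.9, 17.3 and 13.4 CPM on the static array, without overlap. The log2 fold change was -1.62 (SE 0.30; adjusted p 0.00835 by edgeR), and the test for any difference gave an adjusted p of 0.00626. Leaving out 1 static library moved the pairwise adjusted p to 0.0579 (replicate 1) or 0.0781 (replicate 4), with all 26 libraries it was 0.621, and on log2(TPM + 1) it was 0.0904. The Areg call for any difference was also lost by edgeR with all 26 libraries (adjusted p = 0.759) and with the replicate block (0.0629). By limma it was lost on log2(TPM + 1) (0.0718) and log2(TPM + 0.1) (0.0741). Actuated libraries had 30.3, 24.4, 16.2 and 15.6 CPM, with an adjusted p of 1 against static. Among the rest, Egfr (46.0 CPM on average) and Nrg3 (37.7 CPM) had adjusted p of at least 0.0609.

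Of 14 genes that process neuregulins, relay or dampen ErbB signals or act as ETS factors downstream, all 14 were fitted and 0 were called in any of the 6 tests. Erbin, a scaffold that binds ErbB2, was the most abundant at 294.7 CPM on average, followed by Adam10 (131.2 CPM) and Adam19 (106.1 CPM), proteases able to cut neuregulin or its relatives. Their smallest adjusted p was 0.0612, for Erbin. The list's median log2 fold change was 0.03 for actuation, 0.07 for high intensity and 0.09 for low intensity against control.

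Genes whose log2 CPM followed each of the 7 most closely over 21 libraries, out of 13205 protein-coding genes, were as follows. Agrn was followed by Zfp521 (Pearson r 0.85) and Arvcf (0.79). Lrp4 was followed by Myo6 (0.85) and Mlc1 (0.82), and Nrg1 by Gm38393 (0.85) and Cers6 (0.83). Nrg2 was followed by Rbm22 (0.81) and Tifa (0.77), and Erbb2 by Ddost (0.86) and Urm1 (0.80). Erbb3 was followed by Clk4 (0.77) and Rbak (0.75), and Erbb4 by Ahcyl1 (0.79) and Otud7a (0.76). These are the highest of many correlations over libraries that share depth and cell mixture, and are given as a description.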

How the data were processed

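Total RNA from spheroids was converted with a low-input random-primed kit with removal of ribosomal fragments, and read in pairs of 50 bases, per the labels' protocols. The input was 4 ng per sample, except for 8 unnamed samples of lowest concentration, used at full volume. Estimated counts per gene, in whole numbers and not scaled for depth, and TPM values were deposited by the authors for 26 libraries. BWA 0.7.12-r1039, bedtools 2.25.0, STAR and Salmon and the builds mm10, hg19 and GRCm39 are named in the submitters' processing notes, with no role given. Strand use in counting is not given in the sources used here, and coordinates printed are those of RefSeq starts in GRCm38.p6.

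Models were fitted with edgeR 4.0.16 (R 4.3.3) from the 21 libraries with at least 1000000 protein-coding counts: filterByExpr (14730 genes), TMM, 1 coefficient per group, the quasi-likelihood F-test and Benjamini-Hochberg adjustment over all genes per comparison, threshold 0.05. Intervals are 95%. The fit was tested on simulated data. Genes named are the 9 members, listed pathway genes past the threshold or otherwise the 3 of highest mean CPM per list, and the 2 closest genes per member by correlation. The members and lists were chosen with earlier results of these data known. Alternatives were all 26 libraries, other scalings and filters, DESeq2 1.42.0, limma 3.58.1 on counts and TPM, the groups compared alone, a replicate block, removal of mitochondrial and rRNA genes, thinning to 1551334 counts, and leaving out each library. No molecular identifiers are named, so depth limits cover counting error only. All 325 pairs of libraries differed beyond sampling noise (chi-square per degree of freedom at least 4.74, genes of 20 or more summed counts).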

Additional observations from a re-analysis of the deposited data

Results flagged for a closer look

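In 35 group tests of single libraries (Dixon's test, which by chance marks about 1 in 20 groups), 5 libraries stood apart from the others of their group. Musk was 6.95 CPM in high intensity replicate 3 with the other 3 libraries at 0, 2.38 CPM in low intensity replicate 5 with the next at 0.632, and 3.16 CPM in control replicate 1 with the next at 0.580. For Musk the rate of 1 in 20 does not apply, since most libraries of these groups were at 0. With the other 3 at 0, any count in high intensity replicate 3 would have been marked. Erbb2 was 23.0 CPM in low intensity replicate 1, where the next library had 15.3, and 27.3 CPM in control replicate 3, where the next had 13.3.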

How the results depend on the processing

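Of 13 settings other than those of the report and 21 in which 1 library was left out, 3 led to a call among the 9 genes. Without a low-count filter 1 was called for high intensity against control (Erbb3) and 1 for any difference (Musk). On log2(TPM + 1) and log2(TPM + 0.1), 3 were called for low intensity against control, where Agrn was 0.81 and 0.84, opposite to its value from counts, and the rescaled TPM called 0. Leaving out any 1 library kept 0 of the 7 fitted genes called in all 6 tests, and Musk and Dok7 were not fitted there. Among 1190 alternative values of 35 gene and pair differences, 7 were called, and 23 differences that were not called changed sign in at least 1 setting, none of them larger than 0.45 from counts with the settings of the report.

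Counts over all genes depended on the setting, and the cause was not tested. For actuated against static, no filter gave 40 genes and DESeq2 5, against 0. For high intensity against control (68), all 26 libraries gave 6, no filter 700, DESeq2 467, voom 0, the groups compared alone 17, thinning 41, TPM 2324 (pseudocount 1) and 2292 (0.1), and rescaled TPM 29. For low intensity against control (88), all 26 libraries gave 4, no filter 660, DESeq2 471, voom 1, the groups alone 28, TPM 5440 and 5537, and rescaled TPM 17. For high against low intensity (0), no filter gave 126, DESeq2 41, TPM 2 and 1, and rescaled TPM 1. For static array against control (105), all 26 libraries gave 2, no filter 459, DESeq2 381, the groups alone 42, TPM 1091 and 1145, and rescaled TPM 19. For any difference (505), all 26 libraries gave 27, no filter 2064, DESeq2 1428, TPM 2895 and 2793, and rescaled TPM 49.

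Leaving out 1 library gave 0 to 396 genes for high intensity against control (396 without high intensity replicate 6, 0 without replicate 1 or 3), 2 to 260 for low intensity against control (2 without low intensity replicate 1, 260 without replicate 3), 0 to 3 for high against low intensity, 16 to 141 for static array against control (16 without static replicate 4) and 184 to 650 for any difference (184 without actuated replicate 4). No pairing by replicate number was seen in these correlations. Over 31 same-number pairs the mean correlation of deviations was -0.0038, and 4 pairs were over 0.1. Over 144 different-number pairs the mean was 0.0010, and 21 pairs were over 0.1. Whether libraries of the same number shared a culture was not tested. With the replicate number as a block, high intensity against control gave 2 genes, low intensity 8, static array 36 and any difference 148. Of the 7 fitted members, 0 were called there. Under that block Areg had an adjusted p of 0.0585 against control on the static array and Chrna1 one of 0.0670 for any difference.

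Depth bears most on Musk, Dok7, Nrg2 and Erbb3, the genes of lowest level, since 3 counts correspond to up to 1.90 CPM in the shallowest library compared.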
